A study of Frankliniella occidentalis and Frankliniella intonsa with 9 samples.

Results

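Chemosensory proteins (CSPs) are small, soluble, secreted proteins of arthropods, built of helices around a hydrophobic pocket and held by disulfide bridges between conserved cysteines. Some fill the fluid around olfactory and gustatory neurons in insect antennae, where they are thought to carry hydrophobic molecules, as odorant-binding proteins (OBPs) do. Other CSPs are made outside sense organs and have been linked to development and to immune responses, so the family is not purely sensory. The Pfam domain that defines it, OS-D, takes its name from a Drosophila gene of the olfactory segment.

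The genes described here are the assembled genes whose Pfam text names OS-D and whose mean reached 100 TPM in at least 1 of the 3 groups of antennal libraries. They were thus chosen by their measured levels, and 11 of the 17 rows with the domain met the rule, in a table of 48889 rows. TPM states a transcript's share of its library after division by its length. Setting levels of different genes side by side assumes whole transcripts evenly covered by reads, which was not tested for these assembled rows. Each group had 3 libraries made from antennae of adults 1 day old. They came from the western flower thrips Frankliniella occidentalis, as a female and a male group, and from females of its close relative F. intonsa. No males of F. intonsa are covered. The labels give no strain, host plant, rearing condition or number of insects per library. They also leave unsaid whether a replicate is 1 insect or a pool, and p-values here reflect only how these libraries differ among themselves, and that spread may be technical. By its title, the study set OBPs and CSPs of the species side by side. Since levels chose these genes, levels are given as a description, with no test. The difference between the sexes was not itself a criterion and is tested, although the male and female means each entered the rule, so a gene chosen through one sex alone is marked as such.

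Both species were read against 1 assembly, in which rows sharing a Trinity component (the identifier up to the _g number) were assembled from overlapping sequence. The 11 genes fell into 7 components and are called by their identifiers without the prefix TRINITY_. Their annotation was by similarity: 4 had ejaculatory bulb-specific protein 3 of Drosophila (EbpIII, a CSP first found in a male reproductive gland) as Swiss-Prot match, 1 had the Drosophila antennal protein A10, and 6 had none there. For 5 of the 11 the matched database protein was itself from F. occidentalis. Listed lengths ran from 472 to 1222, with 1 to 4 transcripts per gene, and the table holds no sequence.

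The F. intonsa libraries stood apart from each other, and every value of that species below is given per library. Rows without a database match took 85.1%, 44.4% and 92.4% of TPM in F. intonsa libraries 1, 2 and 3, against 23.3% to 29.5% in the 6 F. occidentalis libraries. The matched part in F. occidentalis includes rows of a single name, WN48_00612, that took a large part of TPM there and little in F. intonsa. Antennal markers were highest in library 2 as well. The odorant receptor co-receptor, which most insect odorant receptors need, summed to 0.08, 18.4 and 0 TPM over 2 rows in F. intonsa libraries 1, 2 and 3, and to between 9.16 and 23.3 TPM in F. occidentalis. Sensory neuron membrane protein 1 (5 rows) summed to 3.49, 16.9 and 0 TPM, and ionotropic receptor 25a (4 rows) to 0, 19.9 and 0 TPM in those F. intonsa libraries. Depth is unknown, since TPM keeps no read numbers. In whole antennae, fewer cells of a type and less RNA per cell cannot be told apart.

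In F. occidentalis the same gene had the highest level of all OS-D rows in every library. DN43094_c3_g1, with EbpIII of Drosophila as its Swiss-Prot match, was at 3112, 2634 and 3228 TPM in females 1, 2 and 3 and at 3602, 2955 and 2405 TPM in males 1, 2 and 3. The sexes overlapped, with male 1 highest and male 3 lowest of the 6. Its rank among all rows was 13 to 25 over these libraries. Of the summed TPM of the 11 genes, called the pool below, it held 50.2% ± 1.56 in the female libraries and 45.2% ± 7.85 in the male ones (SD, n = 3 each). In F. intonsa the same row was at 4.17, 649 and 2.56 TPM in libraries 1, 2 and 3, which was 0.639%, 6.81% and 1.25% of the pool. Its place at the head of the pool was thus seen in all 6 F. occidentalis libraries and in 0 of 3 F. intonsa libraries.

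A second row of that component, DN43094_c3_g5, is a short one (listed length 217) whose text also names a F. occidentalis chemosensory protein, but it carries no OS-D domain and so is outside the 11. It was at 1535, 1821 and 2390 TPM in females and at 2215, 2315 and 2932 TPM in males, and listed at 0 in all 3 F. intonsa libraries. Its ratio to DN43094_c3_g1 ran from 0.493 to 0.784 in 5 of the 6 F. occidentalis libraries and was 1.22 in male 3. In male 3 the 2 rows therefore went apart, the long row at its lowest and the short row at its highest of 6. A common transcript of origin was not tested.

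**Figure D1:**
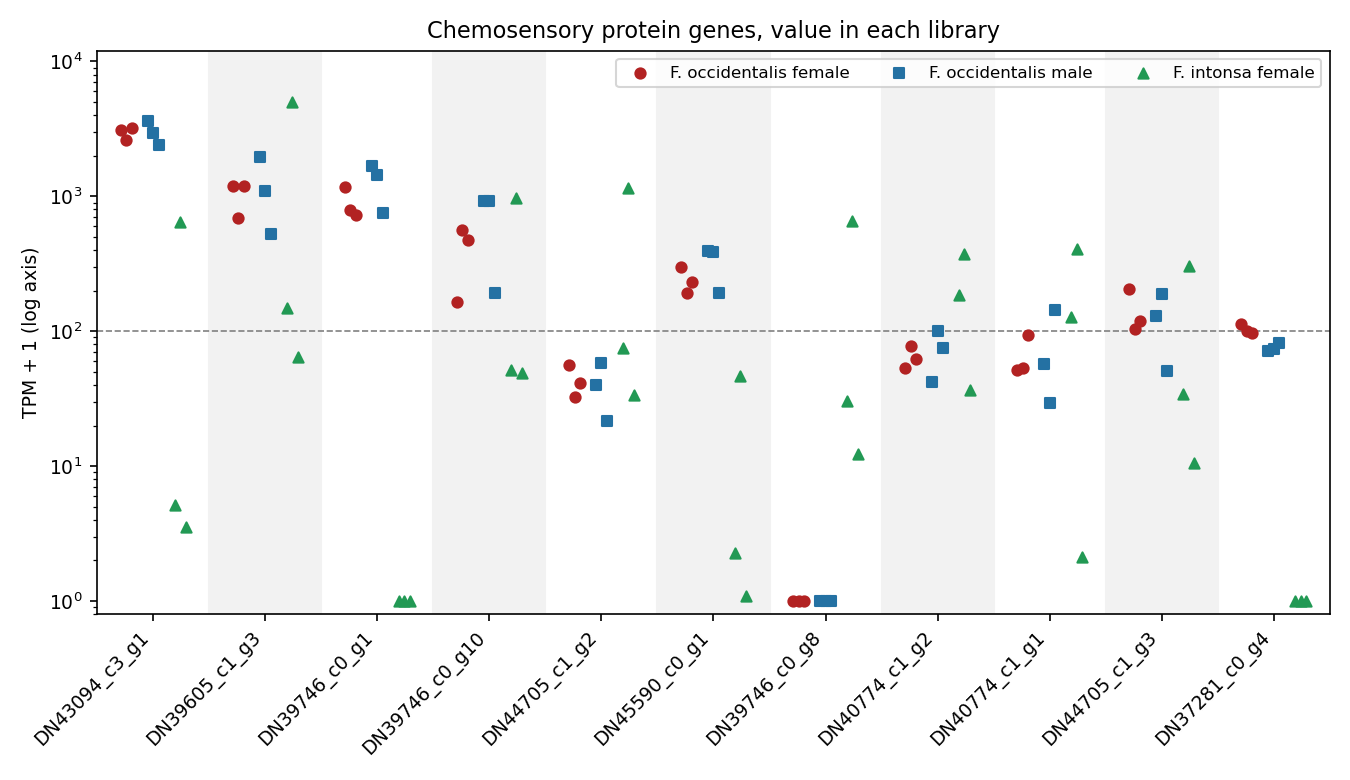
Value of each of the 11 chemosensory protein genes in each of the 9 libraries, as TPM + 1 on a log axis, with 3 points per group in replicate order from left to right and a dashed line at 100 TPM. F. intonsa points spread over the largest range, with library 2 highest in all 9 genes above 0 in that species, while DN39746_c0_g1 and DN37281_c0_g4 are listed at 0 in F. intonsa and DN39746_c0_g8 at 0 in F. occidentalis.

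DN39605_c1_g3, another match of EbpIII annotated from F. occidentalis itself, was the CSP gene of highest level in any single library. It was at 1193, 693 and 1183 TPM in F. occidentalis females and at 1941, 1100 and 529 TPM in males, again with male 1 highest and male 3 lowest. In F. intonsa it was at 148, 4964 and 63.5 TPM in libraries 1, 2 and 3. Its share of the pool averaged 16.9% ± 3.20 for F. occidentalis females and 16.3% ± 5.06 for males (SD, n = 3 each). In the F. intonsa libraries that share was 22.7%, 52.1% and 31.0%. It led the 11 genes in F. intonsa libraries 2 and 3. A short row of the same component without the domain, DN39605_c1_g1 (listed length 351), was at 54.7, 616 and 31.3 TPM in F. intonsa and listed at 0 in F. occidentalis.

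The levels of these leading genes ran nearly in parallel across the F. occidentalis libraries. By Pearson's r of log2(TPM + 1) over 6 libraries, DN39605_c1_g3 was the gene most like DN43094_c3_g1 among 542 Swiss-Prot matched genes averaging 100 TPM or more in F. occidentalis (r = 0.989, Spearman's rho = 0.943). The next were a match of muscle-specific protein 20 (DN43936_c0_g11, r = 0.967), a protein of insect muscle, and a match of a subunit of mitochondrial complex I (DN42954_c0_g3, r = 0.900). With 6 libraries and this many candidates, these values order the genes and are no evidence of a relation.

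Component DN39746_c0 was the one with most members and with a row seen in a single species on each side. DN39746_c0_g1, matching an ejaculatory bulb-specific protein 3-like protein of a parasitoid wasp, was at 1166, 793 and 723 TPM in F. occidentalis females and at 1685, 1438 and 747 TPM in males, and was listed at 0 in all 3 F. intonsa libraries. DN39746_c0_g8, with the same match, showed the opposite pattern: it was listed at 0 in all 6 F. occidentalis libraries and was at 29.6, 656 and 11.2 TPM in F. intonsa. DN39746_c0_g10, also with that match, was above 0 in both species.

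This shared row was at 164, 564 and 475 TPM in F. occidentalis females, at 923, 924 and 192 TPM in males and at 50.9, 979 and 48.4 TPM in F. intonsa. Female 1 and male 3 were the low libraries in F. occidentalis, and the coefficient of variation was 52.4% in females and 62.1% in males. Its ratio to DN39746_c0_g1 was 0.140 in female 1 and 0.257 in male 3, and 0.548 to 0.711 in the other 4 F. occidentalis libraries. In F. intonsa the ratio of DN39746_c0_g8 to the shared row was 0.581, 0.670 and 0.232. Summed, the 3 genes of the component reached 1295 ± 84.7 TPM across the females and 1970 ± 901 TPM across the males (SD, n = 3 each). Their sum in F. intonsa was 80.5, 1634 and 59.6 TPM. Of the 7 components it held the second largest share of the pool in all 6 F. occidentalis libraries, after DN43094_c3, and in F. intonsa libraries 2 and 3, after DN39605_c1. A further row of it, DN39746_c0_g4, is named as a protease inhibitor, so a component need not hold a single kind of gene.

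**Figure D2:**
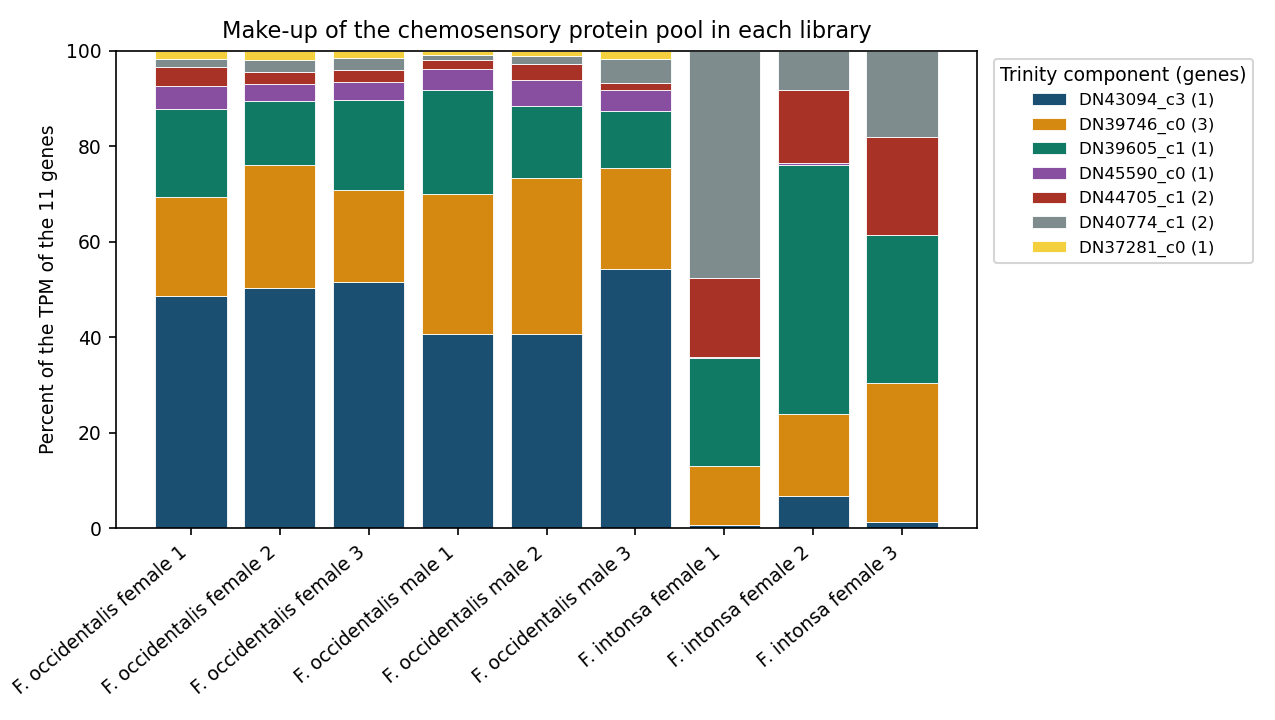
Percent of the summed TPM of the 11 genes held by each of the 7 Trinity components (number of these genes in brackets) in each library. DN43094_c3 holds 40.6% to 54.3% in the F. occidentalis libraries and 0.639% to 6.81% in the F. intonsa libraries, where DN39605_c1, DN44705_c1 and DN40774_c1 take larger shares.

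The paired rows of component DN44705_c1, both matching an ant ejaculatory bulb-specific protein 3, changed their order between the species in every library. DN44705_c1_g3 was at 206, 103 and 119 TPM in F. occidentalis females, at 129, 187 and 50.1 TPM in males and at 33.6, 302 and 9.61 TPM in F. intonsa. DN44705_c1_g2 was at 55.2, 31.8 and 40.1 TPM in females, at 39.1, 57.2 and 20.6 TPM in males and at 73.9, 1150 and 32.4 TPM in F. intonsa. The ratio of the latter to the former lay between 0.268 and 0.411 throughout F. occidentalis and was 2.20, 3.81 and 3.37 in F. intonsa libraries 1, 2 and 3. This ratio is taken within a library. It ran from 2.20 to 3.81 between F. intonsa libraries whose levels of DN44705_c1_g2 differed up to 35.5-fold. DN44705_c1_g2 is among the 11 only through its F. intonsa mean, which favors a high ratio in that species. No test is therefore given for the ratio. A further row of the component, DN44705_c1_g4, which has no domain and no database match, was at 532, 57.5 and 139 TPM in F. intonsa and listed at 0 in F. occidentalis. It was lowest in library 2, where both OS-D rows were highest. How reads of a species were shared out between rows of a component was not tested.

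The rows of component DN40774_c1 are annotated from a F. occidentalis chemosensory protein and were minor parts of the pool in F. occidentalis. DN40774_c1_g1, the match of A10, was at 51.0, 52.8 and 92.7 TPM in females, at 56.5, 28.2 and 144 TPM in males and at 127, 407 and 1.12 TPM in F. intonsa. DN40774_c1_g2 was at 52.5, 76.6 and 61.0 TPM in females, at 41.1, 98.8 and 74.0 TPM in males and at 184, 374 and 35.8 TPM in F. intonsa. The group means of both reached 100 TPM only in F. intonsa, and DN40774_c1_g2 was the highest of the 11 genes in F. intonsa library 1, with 28.2% of the pool. Together they held 1.10% to 4.91% of the pool in F. occidentalis and 47.7%, 8.20% and 18.0% in F. intonsa. Their ratio varied more than that of the DN44705_c1 rows: DN40774_c1_g2 over DN40774_c1_g1 ran from 0.515 to 3.50 in F. occidentalis and was 1.45, 0.917 and 31.9 in F. intonsa. In male 3, the male library in which most of the 11 genes were lowest, DN40774_c1_g1 was at its highest of the 6.

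**Figure D3:**
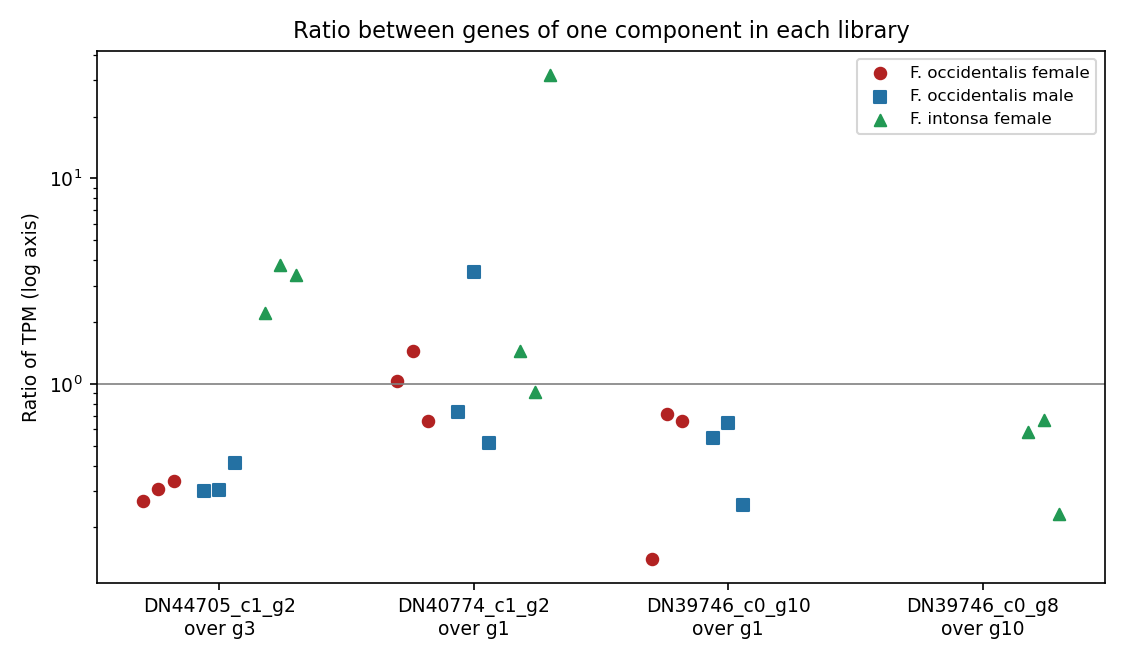
Ratio of TPM between genes of the same component in each library, on a log axis, where both are above 0. For DN44705_c1_g2 over g3 the 6 F. occidentalis libraries lie at 0.268 to 0.411 and the 3 F. intonsa libraries at 2.20 to 3.81, while the ratios in the other components spread or exist in a single species.

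The last of the 11 were reached mainly through F. occidentalis. DN45590_c0_g1, a match of EbpIII and the longest row (1222), was at 299, 191 and 229 TPM in females and at 392, 387 and 191 TPM in males, and at 1.26, 45.9 and 0.10 TPM in F. intonsa. Rows of its component without the domain include matches of the unrelated protein lingerer. DN37281_c0_g4, a further match of EbpIII, lay just inside the threshold, at 113, 99.8 and 96.9 TPM in females and 70.2, 73.5 and 80.3 TPM in males, and was listed at 0 in F. intonsa. It was the steadiest of the 11, with a coefficient of variation of 8.25% in females and 6.90% in males. Just outside the threshold was DN46458_c1_g5, whose mean was 75.5 ± 25.2 TPM for females and 75.0 ± 35.6 TPM for males (SD, n = 3 each). It was followed by DN46458_c1_g4, which was above 0 only in F. intonsa, at 11.6, 123 and 4.52 TPM.

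Both species had values above 0 for 8 of the 11 genes, while 2 were seen in F. occidentalis only and 1 in F. intonsa only. Of the 6 OS-D rows under the threshold 0 had values in both, 3 being seen in one species and 3 in the other. The rule could be met through either species, which favors rows with values in both, and the split over all rows was not counted. In component DN37281_c0 the rows g3 and g4 were seen in F. occidentalis alone and g1 and g2 in F. intonsa alone, and in DN46458_c1 the rows split the same way. The sixth such row, DN13342_c0_g1, was above 0 in F. occidentalis alone. Ribosomal proteins, which every cell uses, split in the same manner: of 460 rows matching a cytosolic one, 214 had values in both species, 145 in F. occidentalis only and 101 in F. intonsa only. A 0 is therefore given as a listing, with no fold against it.

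The F. intonsa values of these genes rested on library 2. Means of at least 100 TPM were reached by 8 of the 11 genes in F. intonsa, 7 in F. occidentalis females and 6 in males, with 4 genes in all 3 groups. Without F. intonsa library 2, 2 genes reached it in that species (DN39605_c1_g3 and DN40774_c1_g2) and 8 genes would meet the rule. Among the 9 genes above 0 in F. intonsa, library 2 was the highest and library 3 the lowest in 9 of 9. How many of all genes share this order was not counted. Library 2 was 2.03 to 156 times library 1 (median 19.2) and 10.4 to 459 times library 3 (median 58.5). For other genes with a database match and above 0 in both libraries compared, the medians were 1.72 and 10.3. The largest ratios to library 3 (459, 364 and 253) rest on values of 0.10, 1.12 and 2.56 TPM there. Since the F. intonsa means helped to choose the genes, the ratios of the 9 genes are a description of the chosen genes. The share of rows without a match, given above, went the opposite way, lowest in library 2 and highest in library 3. Rows named for muscle proteins (myosin heavy chain, troponin, tropomyosin and muscle actin) were highest in library 2 and lowest in library 3, as the CSP genes were. Of these, 32 of 35 were above 0 in F. intonsa, and they summed to 553, 20498 and 320 TPM in libraries 1, 2 and 3. Rows named for opsins and arrestins of the eye, 20 of 27 above 0, summed to 38.3, 2953 and 65.1 TPM. The part of these in the result was not tested.

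The summed level of the 11 genes did not separate the sexes of F. occidentalis. It was 0.669%, 0.548% and 0.651% of TPM in females 1, 2 and 3 and 0.937%, 0.775% and 0.467% in males 1, 2 and 3. Males thus held both the highest and the lowest value of the 6, and their mean was 0.104 percentage points above that of females (exact two-sided permutation test, p = 0.5, where 0.1 is the smallest that 3 against 3 libraries allow). Without male 1 the difference was −0.00187 percentage points (exact permutation p = 1), and without male 3 it was 0.233 (exact permutation p = 0.2). That 0.2 is the smallest p that 2 against 3 libraries allow, since males 1 and 2 both lay above all 3 females. Counted against the TPM of rows with a database match, leaving out rows named WN48_00612, the 11 genes averaged 1.28% ± 0.158 for females and 1.70% ± 0.408 for males (SD, n = 3 each). That difference gave p = 0.3 in the exact two-sided permutation test. The rows left out took a large part of TPM in F. occidentalis, more in males 2 and 3 than in any female library, and little in F. intonsa. Shares on this denominator are therefore not alike between libraries or species. In F. intonsa libraries 1, 2 and 3 they took 0.0663%, 0.992% and 0.0207% of TPM, and 0.445%, 1.84% and 0.272% of the TPM of such matched rows.

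No CSP gene passed the test between the sexes. Expression was compared with limma-trend on log2(TPM + 1) across 22015 genes at a Benjamini-Hochberg adjusted p of 0.05, and 1.89% of them passed, 0.968% with males higher and 0.918% with males lower. Of the 11 genes, 10 were tested and 0 passed, with adjusted p-values from 0.409 to 0.988 (limma-trend). An unadjusted p under 0.05 was reached by 0 of the 10, and by 15.5% of all tested genes. DN39746_c0_g8, listed at 0 in both sexes, was not tested. The fold changes of the 10 genes had a median of 0.03 on the log2 scale, beside 0.19 for all tested genes. Quantile normalization moved these medians to 0.16 and −0.02. The CSP median thus lay under that of all genes on the deposited scale and above it after quantile normalization.

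For the most abundant gene the sexes lay close. On the log2 scale DN43094_c3_g1 differed by −0.02 ± 0.28 (male minus female; SE, n = 3 per sex), with a 95% interval from −0.65 to 0.62, and by 0.29 after quantile normalization. Fold changes of DN39746_c0_g10, DN39746_c0_g1 and DN45590_c0_g1 were 0.63, 0.48 and 0.38, and were above 0 in all 13 alternative analyses run. Some of these could not turn the sign: dropping the filter or the trend, adding the F. intonsa libraries and the replicate block leave the fold change unchanged. With components summed, DN39746_c0_g10 and DN39746_c0_g1 share 1 value, 0.47. The size of the 3 fold changes depended on single libraries: with each left out in turn they ran from 0.08 to 1.39, from 0.25 to 0.83 and from 0.21 to 0.72. The 95% intervals of these 3 genes on all 6 libraries reached from −0.86 to 2.13, from −0.34 to 1.30 and from −0.39 to 1.16. These intervals hold both no difference and more than a doubling, and so do not show that the sexes are alike.

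DN37281_c0_g4 was the only one of the 11 whose sexes did not overlap, with all 3 male libraries under all 3 female ones. Of all tested genes, 20.1% had sexes that did not overlap, 6.83% of all with males lower and 13.3% with males higher. The difference was −0.46 ± 0.24 on the log2 scale (SE; adjusted p = 0.409, limma-trend), and between −0.40 and −0.52 over the 13 alternatives. It reached 100 TPM in females alone, so a lower male mean was part of how it was chosen. The OS-D rows under the threshold gave 3 tested genes, 0 past the threshold and 2 with an unadjusted p under 0.05. These were DN37281_c0_g3, a row of the same component (log2 fold change −0.69 ± 0.30 SE; adjusted p = 0.308, limma-trend), and DN13342_c0_g1, a match of chemosensory protein 1 of a planthopper. The latter was at 38.8, 17.3 and 34.2 TPM in females and at 22.3, 0.870 and 1.77 TPM in males, which gave −2.58 ± 0.83 on the log2 scale (SE; adjusted p = 0.172, limma-trend). Male 1 overlapped with the females in that gene.

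**Figure D4:**
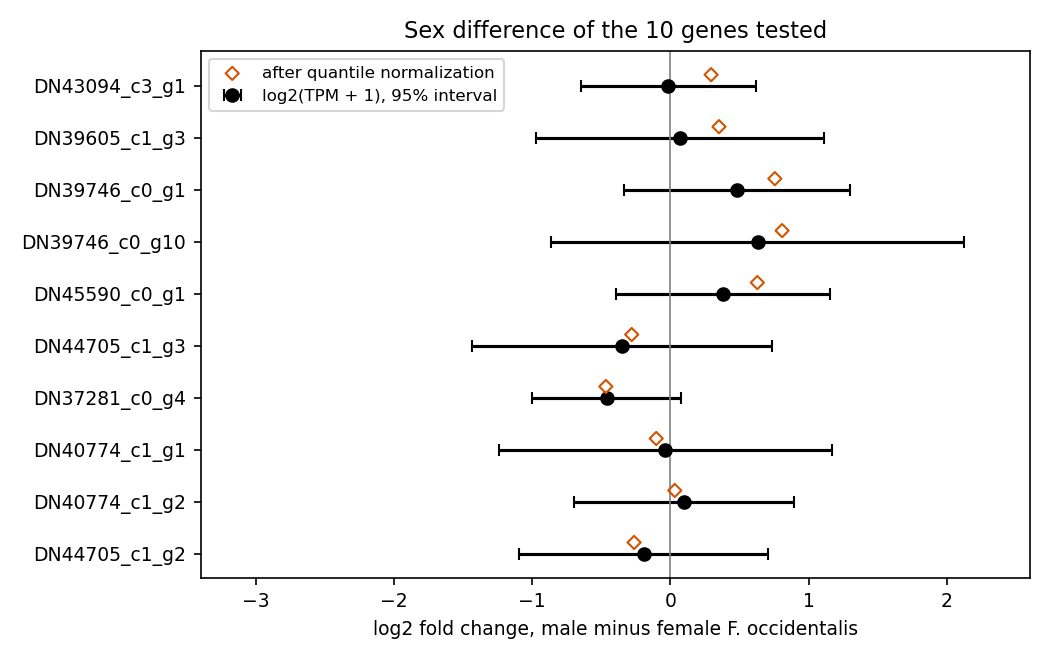
Log2 fold change of TPM + 1, male minus female F. occidentalis, for the 10 genes tested (n = 3 libraries per sex), as points with 95% intervals from limma-trend, and the same after quantile normalization as open diamonds. All 10 intervals include 0, and DN37281_c0_g4 has the narrowest.

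The male libraries differed among themselves more than the female ones did in 9 of the 10 genes above 0 in F. occidentalis, by the SD of TPM. Male 3 was the lowest of the 3 males in 7 of the 10 genes above 0 in F. occidentalis, and the lowest of all 6 libraries in 4. Male 1 was the highest of all 6 in 4. The same counts were not taken over all genes, so they describe these 10 genes and do not set them apart from others. The markers of other tissues varied among the males as well: the muscle rows (28 of 35 above 0 in F. occidentalis) summed to 25337, 14094 and 14971 TPM in males 1, 2 and 3 and to 22908 to 34271 TPM in females. The eye rows (15 of 27 above 0) summed to 3365, 1357 and 2146 TPM in those males and to 2583 to 3679 TPM in females. For both lists male 1 was the highest male library, as it was for the summed CSP genes, while male 3 was the lowest for neither. Other lists went differently. Rows named for hexamerins, apolipophorins and ovary proteins (vitellogenin receptor, chorion and vasa) were each highest in male 2 among the males. Male 3 was their lowest male library, as it was for the summed CSP genes. The apolipophorin rows summed to 15.8, 29.0 and 13.4 TPM in males 1, 2 and 3, and the ovary rows to 49.5, 51.2 and 39.9 TPM. Among antennal markers, the odorant receptor co-receptor was lowest in male 1, at 9.72, 23.3 and 16.0 TPM in males 1, 2 and 3. So were sensory neuron membrane protein 1 (7.09, 21.5 and 11.6 TPM) and the odorant receptor rows (21.2, 43.4 and 28.2 TPM). Ionotropic receptor 25a was lowest in male 3 instead (9.40, 9.98 and 7 TPM). The part of these lists in the result was not tested. Vitellogenins are yolk proteins made mainly in the fat body of females. Their rows (46 of 52 above 0) summed to between 6637 and 12436 TPM in females and between 70.7 and 118 TPM in males and so did not follow the CSP sum.

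OBPs, the other soluble carrier family, did not follow the CSP genes across the males. The 17 rows with the OBP domain (PBP/GOBP in Pfam) summed to 0.592%, 0.957% and 0.898% of TPM in males 1, 2 and 3, so male 3 was near the top for OBPs and at the bottom for the 11 CSP genes. The ratio of CSP to OBP sums was 1.58, 0.810 and 0.519 in those males and 1.35, 0.938 and 0.911 in females (exact two-sided permutation p = 0.8 between the sexes). In F. intonsa it was 0.459, 1.64 and 0.570. Of 10 OBP rows tested between the sexes 0 passed the threshold and 1 had an unadjusted p under 0.05, with a median log2 fold change of 0.44. Sensory neuron membrane proteins had 0 of 6 past it, 3 with an unadjusted p under 0.05, and a median of 1.16. Odorant receptors had 0 of 6 on either count and a median of 0.12 (limma-trend, adjusted p from 0.0844 to 0.943 over the receptors and membrane proteins). After quantile normalization the medians were 0.67 for OBPs, 0.93 for the membrane proteins and −0.16 for the receptors, whose direction thus turned with the scaling.

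**Figure D5:**
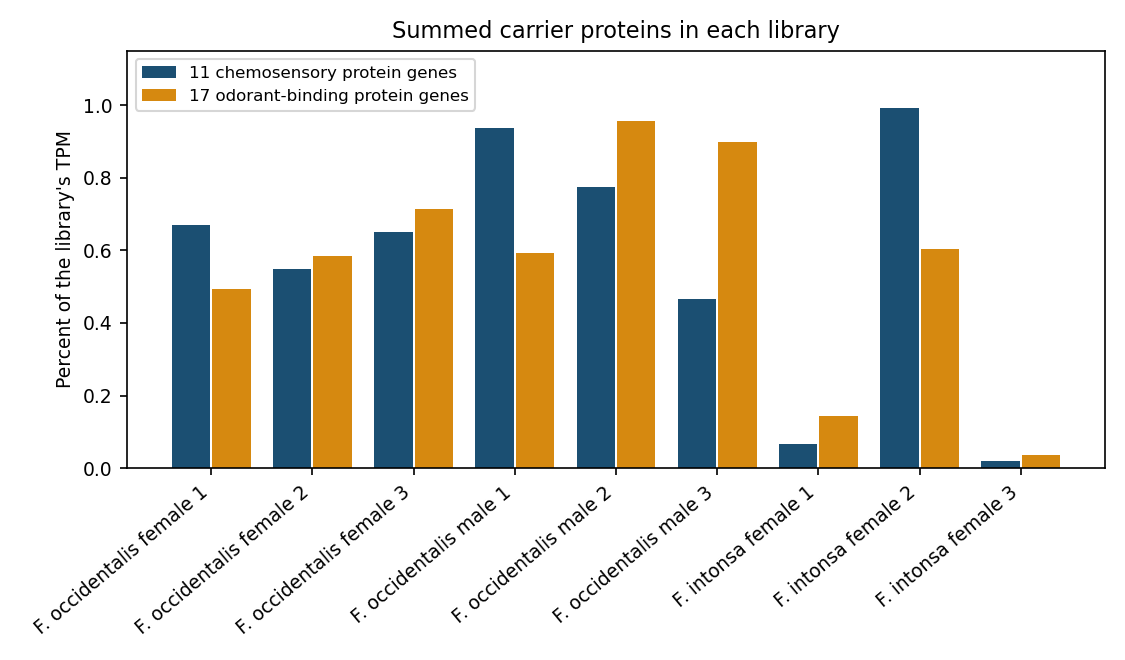
Percent of each library's TPM held by the 11 chemosensory protein genes and by the 17 odorant-binding protein rows. From male 1 to male 3 of F. occidentalis the former stand at 0.937%, 0.775% and 0.467% and the latter at 0.592%, 0.957% and 0.898%, and both are lowest in F. intonsa libraries 1 and 3.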

How the data were processed

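Per the labels' protocols, antennal RNA was turned into cDNA by SMARTer template switching from an oligo(dT) primer and amplified by PCR. The tools cutadapt, FastQC and Salmon appear without versions in the processing, per the submitters' processing notes. The assembler and its version, like the annotation release, were not given in the sources used here. TPM values, as deposited by the authors, fill 1 table, a unit taken from column totals (935518 to 987791) and from Salmon. The smallest row maximum is 5.01, so rows low in every library are absent. Depth is unknown and no detection floor is given.

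The 11 members, the lists and the tests were chosen with earlier results of these data known. All members are named, with the highest OS-D rows under 100 TPM, rows sharing a component and the 3 genes of most similar pattern. Rows without OS-D in a member's component were chosen with their values known. The sexes were compared by limma-trend, using limma 3.58.1 under R 4.3.3, with log2(TPM + 1) values over the 6 F. occidentalis libraries, with at least 1 TPM in at least 3 libraries and no covariate, adjusted over all 22015 genes. This scale understates changes of low genes. The fit was checked on simulated data. Sums were compared by exact permutation (scipy 1.17.1). Same-numbered female and male libraries did not deviate together (r = −0.0285, 0.0499 and −0.0353 across genes). Differently numbered ones gave r from −0.0336 to 0.0560. These values cannot tell whether same-numbered libraries were prepared together, and the main test did not pair them.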

Additional observations from a re-analysis of the deposited data

How the results depend on the processing

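No CSP gene passed the threshold between the sexes of F. occidentalis in any of 13 alternative analyses: quantile normalization, a pseudocount of 0.1, no filter, limma without trend, all 9 libraries in one fit, the replicate number as a block, components summed, and each library left out. The lowest adjusted p (limma) was 0.211, without male 3, where 3 genes had an unadjusted p under 0.05. With the replicate block 0 genes passed, the lowest adjusted p was 0.569, and the difference in the summed share was 0.104 percentage points (exact permutation of the sexes within pairs, p = 0.5, where 0.25 is the smallest possible). Fold changes turned sign in 16 of 130 single-gene values, some of which come from settings that leave the fold change unchanged. DN43094_c3_g1 went from −0.02 to 0.29 with quantile normalization and 0.16 with its component summed, and ran from −0.16 to 0.13 as single libraries were left out. DN40774_c1_g1 went from −0.04 to 0.13 with its component summed, and ran from −0.64 to 0.51 without single libraries. Over those left-out libraries DN39605_c1_g3 ran from −0.38 to 0.56, DN40774_c1_g2 from −0.18 to 0.44, DN44705_c1_g2 from −0.52 to 0.19 and DN44705_c1_g3 from −0.75 to 0.19. The difference in the summed share ran from −0.00187 to 0.233 percentage points, and was 0.0999 to 0.416 with other denominators and member rules. With 3 libraries per sex no exact p could fall under 0.1, and with 1 library left out none under 0.2. The threshold for this difference thus tells nothing of stability. The cause of these changes was not tested. The rule itself, tried without each library as an alternative chosen after seeing the data, gave 8 to 11 genes. Depth is not recorded in TPM, so which low values it limits is unknown.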
